A study of Homo sapiens with 21 samples.

Results

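Guanylate-binding proteins and cytosolic DNA sensors were followed on 21 Affymetrix arrays through 8 genes, chosen by gene symbol out of 19775 genes on the array: GBP1, GBP2 and GBP3, the transcription factor IRF1, and IFI16, AIM2, CGAS and STING1. They are read by 18 of the 54613 non-control probe sets, counting those paired with exactly 1 symbol. The genes were picked with earlier results of these arrays known, so their differences between groups are given below as a description and carry no p-value. A549, a lung adenocarcinoma cell line, was transfected with APE1 siRNA or control siRNA, each with or without trichostatin A (TSA, an inhibitor of histone deacetylases) at 100 ng/ml for 4 hours. BEAS-2B, an immortalised bronchial epithelial cell line, was transfected to express ectopic APE1 that lacks its N-terminal residues (ND42), carries arginine in place of both lysines of K6R/K7R, or is wild type (WT). Each of the 7 groups had 3 arrays, from separate biological replicates according to the methods.

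APE1, encoded by APEX1, is a base excision repair endonuclease that also acts on gene transcription, and the arrays addressed how its level, its N-terminus and the acetylation of its lysines relate to gene expression. All cells were transfected with the same lipid reagent, all BEAS-2B groups carried an APE1 plasmid beside their own APE1, and no untransfected or empty-plasmid array of BEAS-2B was analysed here. The arrays used a single APE1 siRNA. The labels give harvest at 48 hours for both cell lines and a single plasmid backbone for the 3 APE1 forms, whereas the methods give a longer time after siRNA. The methods also place ND42 and K6R/K7R in different backbones, K6R/K7R with a FLAG tag, and WT in both. Plasmid DNA or siRNA was thus present in the cells of every BEAS-2B or A549 group. Which WT plasmid the arrays used is not stated. If the methods hold, part of any difference between the APE1 forms cannot be told apart from the plasmid or tag used.

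Guanylate-binding proteins are large GTPases that cells make in response to interferon gamma and that coat vacuoles and bacteria in the cytosol. Interferon gamma acts through its receptor and the JAK kinases and switches on IRF1, a transcription factor that drives GBP genes. DNA in the cytosol is sensed by CGAS, which makes a cyclic dinucleotide that activates STING1 on the endoplasmic reticulum, and by the PYHIN proteins AIM2, which assembles an inflammasome, and IFI16, which is found mostly in the nucleus. Lung epithelial cells use these proteins in defence against viruses and intracellular bacteria.

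APEX1 itself read 9.53, 9.53 and 9.55 on the log2 scale with APE1 siRNA and TSA, against 11.85, 11.77 and 11.77 with control siRNA and TSA. Without TSA it read 10.05, 8.43 and 10.18 with APE1 siRNA, against 12.20, 12.24 and 12.14 with control siRNA. In BEAS-2B cells APEX1 read 10.39, 10.57 and 10.50 with ND42 and 10.61, 10.67 and 10.68 with K6R/K7R, against 10.85, 11.02 and 10.09 with WT, where its probe set cannot tell the cells' own transcript from that of a plasmid. The array of APE1 siRNA replicate 2 stood apart, with Pearson correlations of 0.876 to 0.896 with the other A549 arrays, where arrays of the same group otherwise correlated at 0.995 to 0.998 over all probe sets. The difference between 3' and 5' probe sets of the control transcript ACTB, a sign of RNA quality, was 0.90 to 1.05 with APE1 siRNA and TSA against 0.54 to 0.87 with control siRNA and TSA, and 0.43 to 6.08 with APE1 siRNA alone against 0.13 to 0.35 with control siRNA alone. For GAPDH it was 0.47 to 0.71 against 0.04 to 0.12 with TSA, and 0.57 to 2.06 against 0.03 to 0.16 without. These signs thus moved with APE1 siRNA in both conditions, not in replicate 2 alone, and ACTB moved with TSA in control siRNA cells too. At brightest probe sets, fold changes of the 8 genes that replicate 2 moved over 1.5 times or turned are given with and without it. Fold changes at other probe sets and of companion genes are over all arrays. The epithelial keratins KRT8 and KRT18 averaged a log2 of at least 6, the level below which probe sets are called dim here, in all 7 groups, whereas EPCAM and KRT19 stayed dim. Markers of other cell types also reached it in all groups, among them CD3E and CD14 of leukocytes and COL1A1 and PDGFRB of fibroblasts. Reaching this level thus does not mark a cell type.

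In BEAS-2B cells GBP1, GBP2 and IFI16 were higher with either APE1 mutant than with WT APE1. GBP2 differed most of the 8 genes, at 4.38-fold with ND42 and 4.77-fold with K6R/K7R. A gene, read at its brightest probe set in the cell line, was called where its log2 fold change was at least 0.32 in size and its limma p stayed under 0.05 after Benjamini-Hochberg adjustment. Of the 8 genes, 3 were called higher with ND42, where 10.3% of all genes were called higher and 17.8% were called in either direction. With K6R/K7R, 4 were called higher, GBP3 being the fourth, where 14.1% of all genes were called higher and 26.0% in either direction. Both comparisons share the WT arrays, so they are not independent of each other. In such bulk RNA, fewer cells that express a gene and less RNA per cell cannot be told apart.

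GBP2 read 8.91, 8.77 and 8.66 in ND42 cells and 8.92, 9.02 and 8.77 in K6R/K7R cells, against 6.74, 6.53 and 6.68 in WT cells. All 6 mutant arrays lay far above the 3 WT arrays. The log2 fold change was 2.13 (SE 0.09) for ND42 and 2.25 (SE 0.09) for K6R/K7R. The second probe set of GBP2, 242907_at, was dim, at 5.70, 5.92 and 5.91 in ND42 cells and 5.54, 5.76 and 5.54 in K6R/K7R cells, against 4.88, 5.04 and 4.78 in WT cells. It moved in the same direction with smaller log2 fold changes of 0.94 (SE 0.09) and 0.71 (SE 0.09).

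GBP1, a GTPase that recruits further family members to bacteria in the cytosol, was read by 4 probe sets. At the brightest, 202270_at, it read 10.20, 10.01 and 10.02 in ND42 cells and 9.99, 10.08 and 10.18 in K6R/K7R cells, against 9.37, 9.31 and 9.15 in WT cells. Mutant and WT arrays did not overlap, and the folds were 1.74 for ND42 and 1.75 for K6R/K7R. Of the other 3 probe sets, 202269_x_at had a log2 fold change of 0.70 (SE 0.07) in both comparisons, and 231577_s_at had 0.88 (SE 0.09) with ND42 and 0.99 (SE 0.09) with K6R/K7R. The fourth, 231578_at, stayed dim on all 9 arrays and did not follow them, at -0.01 (SE 0.09) and -0.18 (SE 0.09). Probe sets with an _x_ or _s_ in their name can bind transcripts of related genes, and GBP family members are close relatives.

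GBP3, a neighbour of GBP1 on chromosome 1, differed less, at 8.51, 8.36 and 8.37 in ND42 cells and 8.68, 8.46 and 8.46 in K6R/K7R cells, against 8.26, 8.21 and 8.14 in WT cells. The mutant arrays lay just above the WT arrays in both cases. Its log2 fold change was 0.21 (SE 0.07, 95% interval 0.05 to 0.38) with ND42, which was not called, and 0.33 (SE 0.07, 95% interval 0.17 to 0.50) with K6R/K7R, which was called. Between the mutants themselves it differed by -0.12 (ND42 minus K6R/K7R, 95% interval -0.29 to 0.04), so a call with K6R/K7R alone does not show that the mutants differ. Without K6R/K7R replicate 1 or without WT replicate 3, the K6R/K7R call was lost.

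At the brightest probe sets, IFI16 was the only one of the 3 DNA sensors called in BEAS-2B cells. At 206332_s_at it read 10.19, 9.99 and 10.09 in ND42 cells and 10.16, 10.14 and 10.25 in K6R/K7R cells, against 9.82, 9.72 and 9.65 in WT cells. The groups did not overlap, with log2 fold changes of 0.36 (SE 0.07) and 0.46 (SE 0.07). Without ND42 replicate 1 the ND42 call was lost. A second probe set, 208966_x_at, gave 0.33 (SE 0.06) and 0.50 (SE 0.06). The remaining one, 208965_s_at, read 8.79, 8.85 and 8.86 in ND42 cells, 9.62, 9.20 and 8.66 in K6R/K7R cells, and 8.98, 8.95 and 8.93 in WT cells. Its K6R/K7R arrays spread on both sides of the WT arrays, and its ND42 arrays lay just below them.

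IRF1, CGAS, STING1 and AIM2 were not called at their brightest probe sets with either mutant. IRF1 read 8.26, 8.40 and 8.35 in ND42 cells and 8.44, 8.45 and 8.34 in K6R/K7R cells, against 8.41, 8.40 and 8.53 in WT cells. The 95% intervals of its log2 fold change, -0.25 to 0.03 with ND42 and -0.17 to 0.10 with K6R/K7R, leave out a rise of the size seen for GBP1. Its second probe set, 238725_at, was lower in all mutant arrays than in WT arrays, by -0.22 (SE 0.07) and -0.24 (SE 0.07), below the fold minimum.

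STING1, the adaptor downstream of CGAS, read 7.51, 7.71 and 7.32 in ND42 cells and 7.40, 7.41 and 7.48 in K6R/K7R cells, against 7.35, 7.48 and 7.27 in WT cells. These values overlapped, with a log2 fold change of 0.15 (95% interval -0.06 to 0.35) and 0.06 (95% interval -0.14 to 0.27). CGAS at 242077_x_at read 6.64, 6.59 and 6.50 in ND42 cells and 6.53, 6.28 and 6.51 in K6R/K7R cells, against 6.64, 6.50 and 6.45 in WT cells, also overlapping. At 1559051_s_at, however, CGAS was called lower with K6R/K7R, by a log2 fold change of -0.37 (SE 0.10), although the K6R/K7R and WT arrays overlapped there. AIM2 was dim in all groups, between 4.33 and 4.72, and its mutant arrays, at 4.33 to 4.42, lay below the lowest WT array at 4.46.

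**Figure D1:**
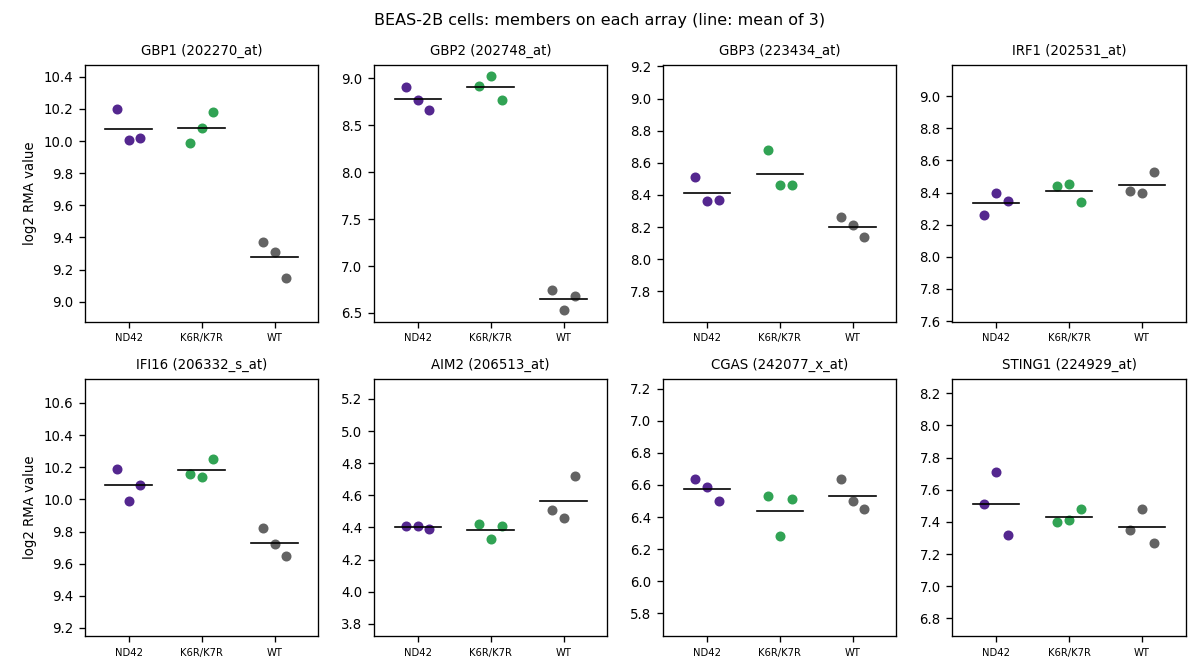
Log2 RMA values (vertical axis, a log2 scale that differs between panels) of the 8 genes on the 9 BEAS-2B arrays, at the brightest probe set of each gene. Points are single arrays of ND42, K6R/K7R and WT cells and lines are means of 3; for GBP1, GBP2, GBP3 and IFI16 all mutant points lie above the WT points, and for AIM2 below them.

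Counted by separation alone, 5 of 8 genes had groups that did not overlap in each mutant comparison, GBP1, GBP2, GBP3 and IFI16 above WT and AIM2 below it. Over all genes, 44.1% had separate groups with ND42 and 50.0% with K6R/K7R, so this count was near the share seen across the array. The median log2 fold change of the 8 genes was 0.18 with ND42 and 0.20 with K6R/K7R, beside -0.00 and -0.01 over all genes. Between ND42 and K6R/K7R none of the 8 genes was called and none had separate groups, where 16.5% of all genes did. limma called 0 of 19775 genes between the mutants (0%), while 2484 had an unadjusted p under 0.05, none of the 8 among them, and 3 were called with an intensity trend and robust variances. For GBP2 the difference between the mutants was -0.12 (95% interval -0.32 to 0.07).

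Some cell type markers were called with the mutants too, in both directions. Over all genes, 17.8% were called with ND42 and 26.0% with K6R/K7R, so such calls do not single out the markers. The summed level of the fibroblast list (COL1A1, COL3A1, PDGFRB and DCN) was 12.99 to 13.04 on the log2 scale in ND42 cells and 12.88 to 13.00 in K6R/K7R cells, against 11.78 to 12.09 in WT cells. COL1A1 and PDGFRB were called higher with both mutants and DCN lower with K6R/K7R. Also called higher with both was 1 of 5 epithelial markers, CDH1. Of 6 leukocyte markers, CD14 was called higher in both comparisons and CD3E and MS4A1 lower with K6R/K7R. Of 3 endothelial markers, PECAM1 was called lower with both mutants, and of 3 alveolar markers measured, SFTPC was called lower with K6R/K7R. Of 2 airway basal markers measured, 0 were called with either mutant. The spiked control bioB read 8.20 to 8.28 with ND42 and 8.18 to 8.47 with K6R/K7R, against 7.61 to 8.24 with WT. The part of these shifts in the GBP values was not tested.

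The promoters were read for a motif of the interferon pathway because GBP1 and GBP3 sit side by side on chromosome 1 and moved together in BEAS-2B cells. In RefSeq coordinates of GRCh38.p14, GBP3 spans chr1:89006680-89022866, GBP1 chr1:89052319-89065208 and GBP2 chr1:89106132-89126114. IFI16 at chr1:158999976-159055151 and AIM2 at chr1:159055051-159147132 form another neighbouring pair, whose annotated ends overlap. Windows of 250 bases before to 50 after the start were found for GBP1, GBP3, IRF1, IFI16 and AIM2. The core of the interferon-stimulated response element, which is GAAA, 2 bases of any kind and GAAA again, was searched on both strands. It lay in the windows of GBP1, GBP3 and AIM2, and in 1255 of 35116 promoters overall (3.57%). The stretches around these matches are shown, each on its gene's minus strand and 5′ to 3′, with the motif in capitals, since they let the GBP elements be set side by side.
GBP1 response element, chr1:89065316-89065345: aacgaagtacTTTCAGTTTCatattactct
GBP3 response element, chr1:89022845-89022874: aaagaagtacTTTCAGTTTCattaggctct
AIM2 response element, chr1:159076937-159076966: tctaggccacTTTCTGTTTCcaatcagtgt
The response element lies on the opposite strand in all 3 genes, at -127 to -118 from the start site in GBP1, 3 to 12 bases into the transcript in GBP3 and at -190 to -181 in AIM2. The GBP1 and GBP3 stretches are identical at 25 of 30 positions and share a run of 19 bases that holds the element, whereas those of AIM2 and GBP1 match at 16 of 30. Of the 3 genes with a response element, GBP1 and GBP3 read above WT in the mutants and AIM2 below it. AIM2 was dim and not called with either mutant, and GBP3 was not called with ND42. The windows of IRF1 and IFI16 held no match to this one element, which says nothing of other elements.

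The companion genes were chosen by role with earlier results of these arrays known, so their p-values, adjusted over all probe sets, are no independent support. The interferon gamma receptor and JAK list had 11 genes measured. With ND42, 6 were called higher, 1 lower and 4 not called, and with K6R/K7R likewise 6, 1 and 4, beside 17.8% and 26.0% of all genes called. The list's median log2 fold change was 0.36 with ND42 and 0.35 with K6R/K7R, beside -0.00 and -0.01 over all genes. SOCS3, a feedback inhibitor of JAK signalling, read 7.99, 7.65 and 7.75 in ND42 cells and 8.01, 7.96 and 7.79 in K6R/K7R cells, against 6.76, 6.78 and 6.77 in WT cells. Its log2 fold change of 1.03 (SE 0.09, limma adjusted p 3.48e-05) with ND42 and 1.15 (SE 0.09, adjusted p 1.58e-05) with K6R/K7R was the largest of the list. The receptor chain IFNGR1 was higher by 0.43 and 0.54, IFNGR2 by 0.40 and 0.42 and the kinase JAK1 by 0.44 and 0.53. IRF9, a DNA-binding factor of the interferon response, was lower by -0.74 (SE 0.09, limma adjusted p 0.000227) and -0.59 (SE 0.09, adjusted p 0.000642). IFNG, which encodes interferon gamma itself, was dim on all 9 arrays and not called.

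Other genes that interferon gamma induces moved in both directions. Of 17 measured, 3 were called higher and 4 lower with ND42 and 4 higher and 4 lower with K6R/K7R, with median log2 fold changes of 0.14 and -0.02, beside 17.8% and 26.0% of all genes called. The immunoproteasome subunit PSMB9 read 10.48, 10.37 and 10.33 in ND42 cells and 10.41, 10.55 and 10.47 in K6R/K7R cells, against 9.83, 9.89 and 9.82 in WT cells. WARS1, a tRNA synthetase, went the other way, at 8.46, 8.52 and 8.50 in ND42 cells and 8.59, 8.63 and 8.42 in K6R/K7R cells, against 9.50, 9.67 and 9.69 in WT cells. CD274, which encodes the checkpoint ligand PD-L1, was lower by -0.69 and -0.80 (SE 0.07 each, limma adjusted p 7.62e-05 and 2.6e-05). TAP1 and TRIM22 were called higher and IDO1 and TRIM21 lower with both mutants. IDO1 was dim in both mutants, with group means of 5.78 with ND42 and 5.76 with K6R/K7R, against 6.31 with WT. A uniform rise of genes that interferon gamma induces together with the GBPs was thus not seen.

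Of the other guanylate-binding proteins, GBP4, GBP5 and GBP6 were measured and all were dim in BEAS-2B cells, with group means of 4.60 to 5.55. GBP6 was called lower, by -0.38 with ND42 (SE 0.10, limma adjusted p 0.0275) and -0.33 with K6R/K7R (SE 0.10, adjusted p 0.0332), and the other 2 were not called.

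Of the 8 genes of the PYHIN and inflammasome list, which act with or beside AIM2, 2 were called higher and 3 lower with ND42 and 3 higher and 3 lower with K6R/K7R, beside the same 17.8% and 26.0% over all genes. PYCARD, the adaptor of the AIM2 inflammasome, was higher by 0.40 and 0.53, and GSDMD, the pore protein cut by inflammatory caspases, by 0.49 and 0.51. The inflammasome's substrate IL1B read 8.92, 9.07 and 9.05 in ND42 cells and 9.02, 8.83 and 9.01 in K6R/K7R cells, against 9.86, 9.77 and 9.81 in WT cells. IL18 and NLRP3 were also called lower, NLRP3 being dim, with group means of 5.51 to 5.89. Adaptor and pore genes thus stood above WT and both cytokine genes below it.

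**Figure D2:**
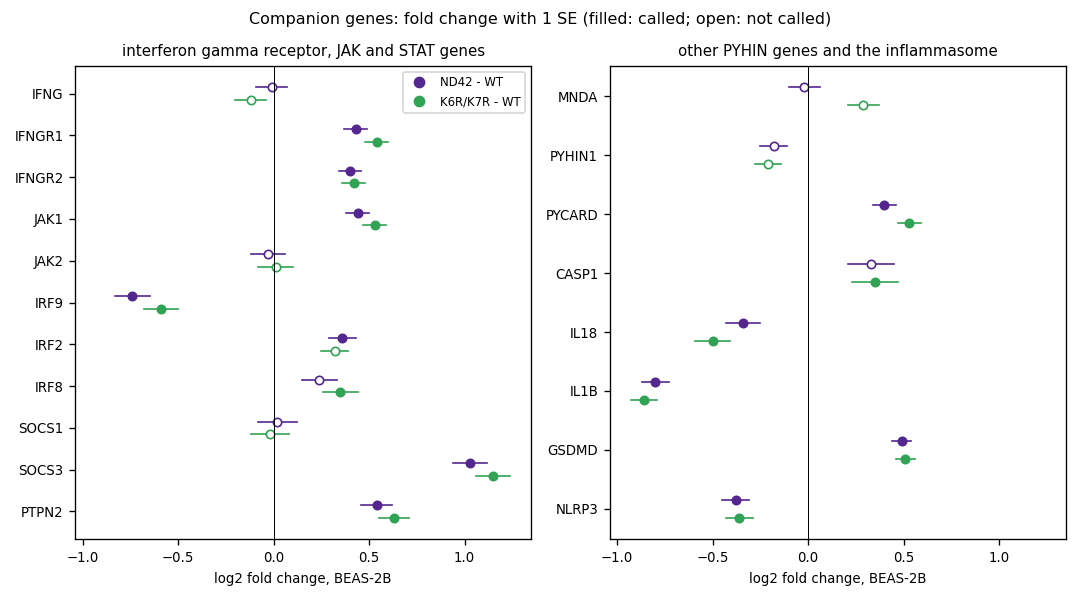
Log2 fold changes (horizontal axis) of 11 interferon gamma pathway genes and 8 PYHIN and inflammasome genes in ND42 and K6R/K7R cells against WT cells. Bars are 1 SE and filled points are called genes; SOCS3 lies farthest to the right and IL1B farthest to the left.

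Of 17 measured partners of the CGAS and STING1 pathway, 2 were called higher and 1 lower with ND42, and 2 higher and 2 lower with K6R/K7R, near the 17.8% and 26.0% called over all genes. RNASEH2A, a subunit of the nuclease that removes RNA from RNA-DNA hybrids, was higher by 0.58 (SE 0.05, limma adjusted p 4.05e-05) and 0.69 (SE 0.05, adjusted p 1.42e-05). TRIM56, a ubiquitin ligase, was higher by 0.46 in both. SLC19A1, a carrier that can import cyclic dinucleotides, was lower by -0.38 and -0.40. IFNB1, the interferon that STING1 induces, was dim on every BEAS-2B array, between 5.04 and 5.41.

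In A549 cells GBP1 and GBP2 were dim on all 12 arrays and at all 6 of their probe sets, with a highest value of 5.38. That value was GBP1 at 231578_at on APE1 siRNA replicate 2. Without TSA the log2 fold change of APE1 siRNA over all arrays was 0.42 for GBP1 at 231578_at and 0.04 for GBP2. Without replicate 2 it was -0.17 for GBP2. For GBP1 it was then -0.08, but at 202269_x_at, which became the brightest probe set and gave -0.09 over all arrays. At 231578_at replicates 1 and 3 read 4.36 and 4.20, against 4.23, 4.24 and 4.21 with control siRNA. Neither gene was called in any A549 comparison, and small changes at this level were not detectable. IFI16, GBP3 and CGAS were the A549 members that were called.

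IFI16 responded to APE1 siRNA in opposite directions without and with TSA. With TSA it read 6.24, 6.26 and 6.18 with APE1 siRNA, against 6.65, 6.63 and 6.70 with control siRNA, a log2 fold change of -0.43 (SE 0.07). Without TSA it read 7.58, 7.55 and 7.47 with APE1 siRNA, against 7.01, 6.79 and 6.91 with control siRNA, a log2 fold change of 0.63 (SE 0.07). The groups were separate each time. IFI16 was the only one of the 8 genes called in either comparison, lower with TSA, where 5.28% of all genes were called and 3.37% lower, and higher without TSA, where 4.94% were called and 1.85% higher. Without replicate 2 these shares were 10.6% called and 6.41% lower with TSA, and 9.18% called and 4.84% higher without TSA. The 3' to 5' differences of ACTB and GAPDH were higher with APE1 siRNA in both conditions, whereas IFI16 moved in opposite directions, and their part in its values was not tested.

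The interaction, the siRNA effect with TSA minus the effect without it, was -1.06 (SE 0.10, 95% interval -1.28 to -0.85) for IFI16, and 24 of all genes were called for it (0.121%). Without replicate 2, 1.79% of all genes were called for it, so the small share rested on that array. None of the other 7 genes was called for the interaction. Without APE1 siRNA replicate 2 the IFI16 effects were almost the same, at -0.43 (SE 0.07) with TSA, 0.62 (SE 0.08) without TSA and -1.05 (SE 0.10) for the interaction. Read from the other side, TSA lowered IFI16 by a log2 fold change of -1.31 (SE 0.07) in APE1 siRNA cells and differed by -0.24 (SE 0.07), below the fold minimum, in control siRNA cells.

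The other probe sets of IFI16 had the same signs with larger errors. At 208966_x_at IFI16 read 6.23, 6.25 and 6.24 with APE1 siRNA and TSA, against 6.47, 6.45 and 6.60 with control siRNA and TSA. Without TSA it read 7.35, 6.02 and 7.37 with APE1 siRNA, against 6.55, 6.82 and 6.98 with control siRNA, replicate 2 being the low array. The dim 208965_s_at gave -0.22 (SE 0.16) with TSA and 0.55 (SE 0.16) without it, neither of them called. Without TSA it read 5.04, 5.72 and 5.12 with APE1 siRNA, against 4.87, 4.71 and 4.64 with control siRNA. Replicate 2 was the high array there and enlarged the rise.

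GBP3 was well above the dim level in A549 cells. With TSA it read 7.46, 7.48 and 7.31 with APE1 siRNA, against 6.82, 6.81 and 6.98 with control siRNA. Without TSA it read 9.32, 7.63 and 9.24 with APE1 siRNA, against 8.24, 8.15 and 8.31 with control siRNA. Replicates 1 and 3 lay above all control arrays and replicate 2 below them. The log2 fold change was 0.55 (SE 0.36, 95% interval -0.25 to 1.34) with TSA and 0.50 (SE 0.36, 95% interval -0.29 to 1.29) without, and neither was called. Leaving out replicate 2 gave 0.55 (SE 0.07) with TSA and 1.05 (SE 0.08) without, both called, and turned the interaction to -0.50 (SE 0.11), called, from 0.05 (SE 0.50) over all arrays. Thus 1 array decided whether GBP3 was called after APE1 siRNA. The part of the 3' to 5' differences that moved with APE1 siRNA was not tested here either.

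GBP3 was lower with TSA on all arrays, by a log2 fold change of -1.31 (SE 0.36) in APE1 siRNA cells and -1.36 (SE 0.36) in control siRNA cells, 2.49-fold and 2.57-fold. Without replicate 2 of the APE1 siRNA group these were -1.86 (SE 0.08) and -1.36 (SE 0.07), called as well. The call in control siRNA cells was lost when any one of its 6 arrays was left out, although the log2 fold change stayed between -1.42 and -1.32 over all alternatives. In APE1 siRNA cells it was lost when any of the other 5 arrays was left out, and the log2 fold change stayed between -1.86 and -1.02. The spread, set by all A549 groups, still held replicate 2 in these fits.

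CGAS was lower with TSA at its brightest A549 probe set, 1559051_s_at. It read 6.11, 5.75 and 5.82 with APE1 siRNA and TSA, against 6.70, 6.81 and 6.59 with APE1 siRNA alone. With control siRNA it read 6.29, 6.02 and 6.03 with TSA, against 6.63, 6.80 and 6.79 without. The groups were separate, with log2 fold changes of -0.81 (SE 0.11) and -0.63 (SE 0.11), or -0.75 (SE 0.11) and -0.63 (SE 0.10) without APE1 siRNA replicate 2. At 242077_x_at, a dim probe set of the same gene, the values ran the other way, by 0.21 (SE 0.11) and 0.36 (SE 0.11), neither called. The 0.21 leaned on APE1 siRNA replicate 2, which read 5.24 there, below 5.50 and 5.71 in replicates 1 and 3. APE1 siRNA moved CGAS by -0.22 (95% interval -0.47 to 0.03) with TSA and -0.04 (95% interval -0.29 to 0.22) without. The value without TSA was -0.09 (SE 0.11) when replicate 2 was left out.

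Of the 8 genes, TSA thus lowered 3, GBP3, IFI16 and CGAS, in APE1 siRNA cells, where 9.77% of all genes were called lower and 25.1% were called in all. In control siRNA cells it lowered 2, GBP3 and CGAS, where 8.94% were called lower and 20.9% in all. Without APE1 siRNA replicate 2 the counts were again 3 and 2, and the shares called were 33.2% in APE1 siRNA cells and 30.9% in control siRNA cells. The groups were separate for 4 of 8 in each case, GBP3, IFI16, AIM2 and CGAS, AIM2 being higher with TSA in APE1 siRNA cells, beside 44.3% of all genes in APE1 siRNA cells and 59.2% in control siRNA cells. The hybridization controls moved with TSA. The spiked bioB read 7.04 to 7.30 on the 6 TSA arrays, against 8.14 to 8.70 on the others, and bioC 10.47 to 10.78 against 9.82 to 10.06. An effect of how these arrays were run cannot be told apart from that of TSA.

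IRF1 and STING1 depended on the probe set with TSA. At 202531_at IRF1 read 8.35, 8.29 and 8.40 with APE1 siRNA and TSA, against 8.69, 8.78 and 8.77 with APE1 siRNA alone, and 8.40, 8.32 and 8.38 with control siRNA and TSA, against 8.64, 8.81 and 8.80 with control siRNA alone. Both falls, -0.40 (SE 0.06) and -0.38 (SE 0.06), met the rule for a call at this probe set. At the brighter 238725_at the log2 fold changes were 0.09 (SE 0.15) and -0.12 (SE 0.15), not called, with APE1 siRNA replicate 2 low at 8.32. Without that array the value in APE1 siRNA cells turned to -0.13 (SE 0.07). STING1 likewise met it at the dim 224916_at, at -0.37 (SE 0.07) and -0.33 (SE 0.07), and not at 224929_at, at -0.10 (SE 0.12) and -0.16 (SE 0.12), the value in APE1 siRNA cells being -0.24 (SE 0.10) without replicate 2. After APE1 siRNA without TSA, IRF1 differed by -0.17 (SE 0.15) and STING1 by -0.08 (SE 0.12), and without replicate 2 by 0.04 (SE 0.07) and 0.06 (SE 0.10), none of them called.

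AIM2 was dim in A549 cells. It read 4.84, 4.88 and 4.84 with APE1 siRNA and TSA, against 4.79, 4.74 and 4.72 with control siRNA and TSA. Without TSA it read 4.79, 4.71 and 4.79 with APE1 siRNA, against 5.01, 4.93 and 5.09 with control siRNA. The control siRNA arrays without TSA were the highest, the differences stayed below the fold minimum, and AIM2 was called nowhere. After APE1 siRNA, 3 of 8 genes had separate groups with TSA and 2 without, beside 34.9% and 23.9% of all genes.

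**Figure D3:**
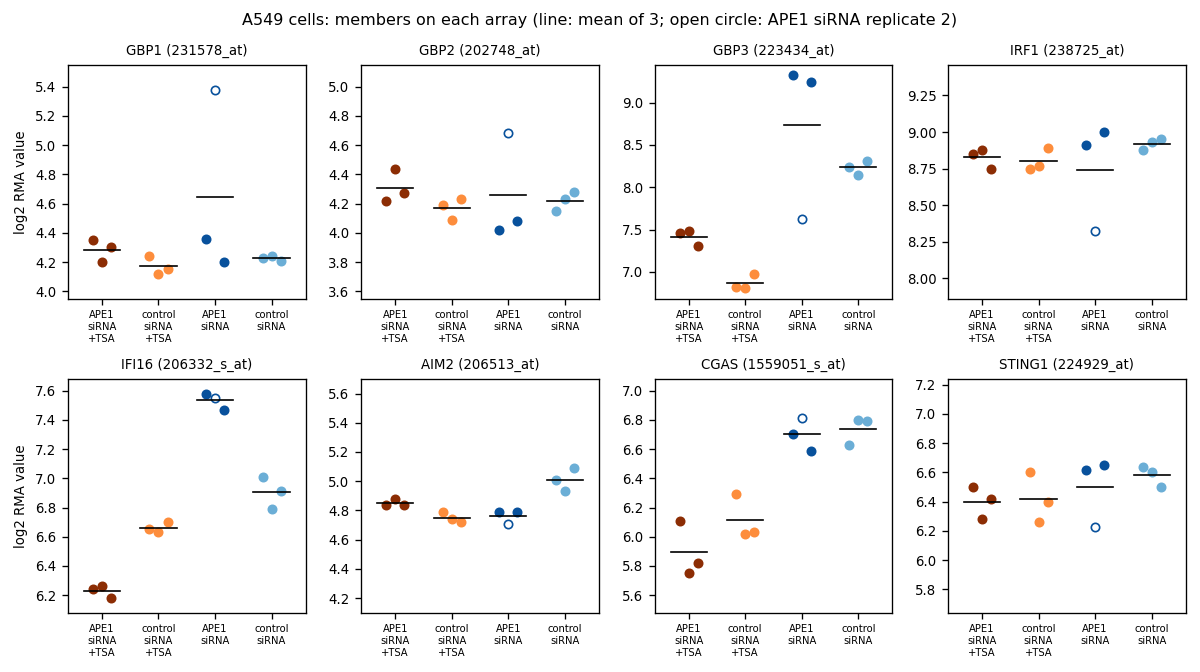
Log2 RMA values (vertical axis, a log2 scale that differs between panels) of the 8 genes on the 12 A549 arrays, at the brightest probe set of each gene. Points are single arrays, lines are means of 3, and the open circle is APE1 siRNA replicate 2, which at 7.63 lies below the control siRNA arrays for GBP3 but at 7.55 within its group for IFI16.

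The companion counts in A549 cells after APE1 siRNA stand beside 5.28% of all genes called with TSA and 4.94% without, or 10.6% and 9.18% without replicate 2. Of the interferon gamma list, IRF2, a repressor that competes with IRF1 for DNA, read 5.35, 5.42 and 5.05 with APE1 siRNA and TSA, against 6.65, 6.46 and 6.52 with control siRNA and TSA. Without TSA it read 6.78, 6.56 and 6.61 with APE1 siRNA, against 7.23, 7.51 and 7.41 with control siRNA. Its log2 fold changes were -1.27 (SE 0.11, limma adjusted p 0.000132) and -0.74 (SE 0.11, adjusted p 0.0046). It was the only one of 11 called with TSA, and JAK1 and IRF9 were called lower beside it without TSA. Leaving out APE1 siRNA replicate 2 gave 2 genes lower with TSA, IRF2 and PTPN2, and 3 without, IRF9, IRF2 and PTPN2.

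Of the interferon gamma-induced genes, TAP1, TAP2 and WARS1 were called lower after APE1 siRNA without TSA and none of 17 with TSA. Without replicate 2, 1 was higher and 3 lower without TSA, and 1 higher and 2 lower with TSA. Among the CGAS and STING1 partners, LRRC8A, a subunit of a channel that can pass cyclic dinucleotides, was called higher without TSA (0.38, SE 0.07, limma adjusted p 0.00921) and none of 17 with TSA. None of the 8 PYHIN and inflammasome genes and none of the 3 other GBP genes was called after APE1 siRNA in either condition. Without replicate 2, IL1B was called higher without TSA and DDX41 with TSA, and LRRC8A was again called without TSA.

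With TSA, 2 CGAS and STING1 partners were called higher and 1 lower in APE1 siRNA cells, and 4 higher and 2 lower in control siRNA cells, of 17 measured, beside 25.1% and 20.9% of all genes called. SAMHD1, which breaks down deoxynucleotides, read 10.34, 10.27 and 10.28 in APE1 siRNA cells with TSA, against 8.83, 8.77 and 8.80 without, and 10.10, 10.22 and 10.45 in control siRNA cells with TSA, against 9.14, 8.93 and 9.10 without. IRF7, a transcription factor of the interferon response, was higher by 1.50 and 1.14 (SE 0.15 each), and TRIM56 was lower by -1.33 and -1.19 (SE 0.14 each). IL18 was the 1 inflammasome gene called, higher by 0.57 and 0.85 (SE 0.09 each). IFNGR2 was lower by -0.54 and -0.73 and IRF2 by -1.38 and -0.84, while JAK1 was higher by 0.61 and 0.48. IFNB1 stayed dim in every A549 group, with means of 5.53 to 5.71. Without APE1 siRNA replicate 2 the partner counts were larger, at 3 higher and 4 lower in APE1 siRNA cells and 5 higher and 5 lower in control siRNA cells, beside 33.2% and 30.9% of all genes.

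Of the 17 interferon gamma-induced genes, 3 were called higher and 4 lower with TSA in APE1 siRNA cells, beside 25.1% of all genes called. In control siRNA cells 1 was called higher and 2 lower, beside 20.9% of all genes. PSMB9 was higher by 0.55 and 0.61, and TRIM22, an antiviral ubiquitin ligase, was lower by -0.88 and -0.80. Without APE1 siRNA replicate 2 the counts were 2 higher and 3 lower in both, beside 33.2% of all genes called in APE1 siRNA cells and 30.9% in control siRNA cells. Of the 11 genes of the interferon gamma list, 1 was called higher and 2 lower in APE1 siRNA cells, and 1 higher and 3 lower in control siRNA cells. Without replicate 2 these counts were 2 higher and 3 lower, and 1 higher and 5 lower. The same shares of all genes stand beside them. None of the other GBP genes was called with TSA over all arrays, and GBP6 was called lower in control siRNA cells without replicate 2. No gene of the 5 lists was called for the interaction, and 1, IL1B, was called without replicate 2.

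**Figure D4:**
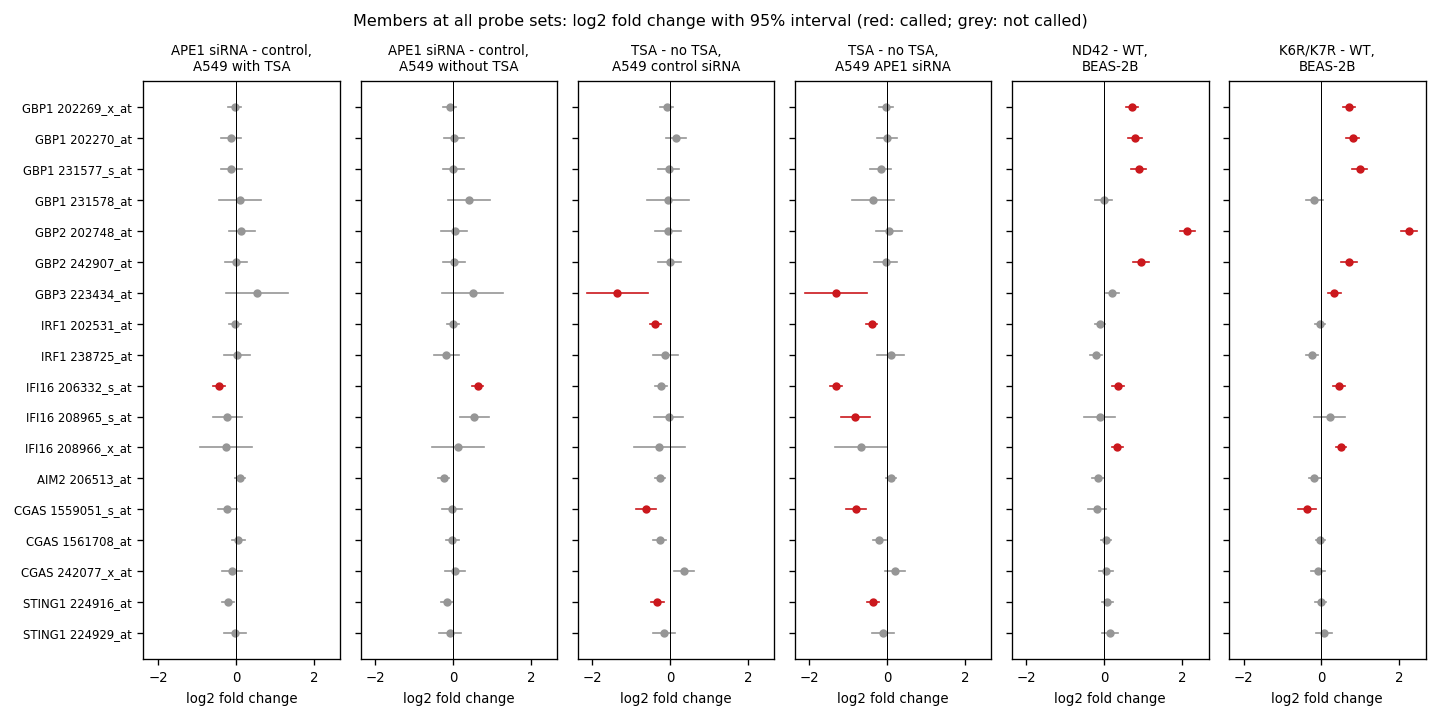
Log2 fold change (horizontal axis) with its 95% interval for all 18 probe sets of the 8 genes in 6 comparisons. Red points met the rule for a call; in BEAS-2B cells these are 7 probe sets higher with ND42, of GBP1, GBP2 and IFI16, and 8 higher and 1 lower with K6R/K7R, with GBP3 and, lower, CGAS beside them, and in A549 cells IFI16 206332_s_at lies left of 0 with TSA and right of 0 without.

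The genes most like each of the 8 over 20 arrays, all but APE1 siRNA replicate 2, were found from Pearson's r of log2 values taken minus each cell line's mean. Only genes with a mean log2 of at least 6 over all 21 arrays could be named as near. These arrays fall into groups and share normalization within a cell line, so r is a description only. GBP2 was closest to the complement factor CFB (0.988), the matrix protease MMP2 (0.987) and YPEL3 (0.985), and GBP1 to SOX4 (0.943), MATN2 (0.941) and SULF2 (0.940). GBP3 was closest to YAP1 (0.985), PARP4 (0.975) and SIRPA (0.972), IFI16 to CDC7 (0.944), HOXB3 (0.933) and CTSZ (0.928), and IRF1 to CHTF8 (0.956), PPP4R1 (0.951) and METTL17 (0.949). CGAS was closest to SMURF1 (0.941), KIAA0753 (0.938) and MCM9 (0.935). Over all 21 arrays the nearest were instead CFB, YPEL3 and ADSS1 for GBP1 and JADE2, PARP9 and DNAJC14 for CGAS. GBP2 kept the same 3 genes. Such neighbours can thus depend on 1 array. The nearest genes were less alike for STING1, with WDR86 (0.870), CWF19L2 (0.771) and NOD1 (0.769), and for AIM2, with DMRTA2 (0.858), TMEM62 (0.839) and CRYBG2 (0.825). No 2 of the 8 genes were among each other's 3 nearest, which for GBP2 and AIM2 as near genes was fixed by the minimum mean. Within a cell line, r of GBP1 and GBP2 was 0.97 over 9 BEAS-2B arrays. It was -0.14 over 11 A549 arrays, where both genes were dim.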

How the data were processed

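Total RNA of 21 cell line samples was hybridised to Affymetrix HGU133 Plus 2.0 arrays. The deposited log2 values of 54675 probe sets were produced by the authors with affy (RMA background correction, then quantile normalization), and the values show that each cell line was normalized on its own. Software versions for these steps were not given in the sources used here. Comparison tables that the authors deposited, with log2 fold changes and p-values, were not used. RMA draws differences at dim probe sets together, and levels of the cell lines are not compared here.

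The values were tested as deposited in R 4.3.3 with limma 3.58.1 (lmFit, eBayes), with 1 mean per group and a fit for each cell line over 12 A549 or 9 BEAS-2B arrays. The study's methods name limma and contrasts between groups. After removal of 62 Affymetrix controls, Benjamini-Hochberg adjustment ran over the remaining 54613 probe sets. Calls needed an adjusted p under 0.05 and at least 1.25-fold. Of these probe sets, 41091 had 1 gene symbol, 1801 several and 11721 none, and each gene was read at its brightest probe set. The 3 arrays of a group limit the precision of each value. The fit was tested on simulated data. Promoter sequences and gene positions are from RefSeq GRCh38.p14.

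The 8 genes and the companion lists were chosen with earlier results of these data known. Named genes were all 8 at every probe set, APEX1, up to 3 called genes of each companion list per comparison with the smallest adjusted p, and the 3 nearest genes by correlation. Other companion genes were named after their values were seen. GBP7 and TREX1 were not analysed here. Alternatives were another normalization, fit, filter, probe set rule, threshold, replicate block and leaving out each array.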

Additional observations from a re-analysis of the deposited data

Results flagged for a closer look

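The effect of APE1 siRNA on IFI16 differed between A549 cells with and without TSA. The log2 interaction was -1.06 (SE 0.10, limma), made of a fall of -0.43 with TSA and a rise of 0.63 without it. All 3 APE1 siRNA arrays lay below all control siRNA arrays with TSA and above all of them without it. The difference kept its sign in all 21 alternatives, between -1.19 and -0.75, and it was not called after a further quantile normalization. Some of these alternatives change only a threshold or the estimate of spread, so they could not turn the sign. The spiked controls also differed between arrays with and without TSA, and their part was not tested.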

How the results depend on the processing

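For APE1 siRNA with TSA, 1 of 8 genes was called, but 2 with only the compared groups in the fit, and 0 after a further quantile normalization or when probe sets were averaged per gene; for the interaction, 0 after the quantile normalization. For TSA in control siRNA cells, 2 became 1 with averaged probe sets or an adjusted p under 0.01, and 4 with any probe set or with no minimum fold. For TSA in APE1 siRNA cells, 3 became 5 with any probe set. The GBP3 call there was lost with only the compared groups in the fit or with an adjusted p under 0.01. Leaving out 1 array gave 1 to 2 genes for APE1 siRNA without TSA, with TSA, for the interaction and for TSA in control siRNA cells, 2 to 3 for TSA in APE1 siRNA cells, 3 to 4 with K6R/K7R, 2 to 3 with ND42, and 0 between the mutants. The GBP1 and GBP2 calls in BEAS-2B cells held in all alternatives. In BEAS-2B cells the IFI16 call with ND42 was lost with the quantile normalization or the mean of probe sets, and the GBP3 call with K6R/K7R with the quantile normalization. Both CGAS calls with TSA were lost with averaged probe sets, at -0.27 in APE1 siRNA cells and -0.18 in control siRNA cells. The sign turned for GBP3 in the interaction without A549 APE1 siRNA replicate 2 (-0.50 to 0.34 over the arrays left out) and for IRF1 with TSA in APE1 siRNA cells with any probe set (-0.40). Over all comparisons, 1 other guanylate-binding protein was called, and 0 with a mean log2 of at least 6, the mean of probe sets or an adjusted p under 0.01, or 0 to 1 without 1 array; 8 partners of CGAS and STING1 were called, 13 with only the compared groups, and 8 to 13 without 1 array. The cause of these shifts was not tested. Replicates with the same number were not treated as pairs, since their residuals correlated at only -0.08 to 0.26 in A549 cells, where 7 of 12 arrays were closest to their own number, and at -0.03 to 0.20 in BEAS-2B cells, where 5 of 9 were. With the replicate number as a block, the calls of the 8 genes were again 1 for APE1 siRNA without TSA and 4 with K6R/K7R, and no call of theirs changed. The alternatives for the companion lists were chosen after seeing the data. The signal over background limits GBP1, GBP2 and AIM2 in A549 cells and AIM2 in BEAS-2B cells, which are dim.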
